A study of Mus musculus with 18 samples.

Results

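The 47 genes described here copy DNA and repair it by recombination: the replicative helicase, the factors that load and fire it, the sliding clamp, the polymerases, the suppliers of nucleotides, the BRCA, Fanconi anemia, and MRN repair proteins, the checkpoint kinases, the maintenance methylation proteins, and a pair of E2F transcription factors. They were taken by name from a list, without a threshold on any measured value. The list was chosen with earlier results of these data known. All 47 were found among the 20878 genes of the expression matrix, and all 47 passed the filter on low values in every comparison. The matrix covers 18 tumors grown in female mice of 6 to 8 weeks from grafted K7M2 cells, a mouse osteosarcoma line of Balb/c origin. There were 4 *ATRXCT* and 4 *ATRXKD* tumors from Balb/c mice (Balb/cJ), a syngeneic host with an intact immune system, and 5 *ATRXCT* and 5 *ATRXKD* tumors from NSG mice (NOD.Cg-Prkdc scid Il2rg tm1Wjl/SzJ), which lack T, B, and NK cells. *ATRXKD* cells carried a lentiviral shRNA against *Atrx* and *ATRXCT* cells a control shRNA. Each tumor came from its own mouse. Whole cages were assigned to one kind of cell, and the labels give no cage, so cage and knock-down cannot be told apart. All cells come from one cell line, so the spread within a group is that between grafts of this line in different mice.

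During licensing, CDC6 and CDT1 place MCM helicase rings on replication origins. In S phase, CDC45 and the GINS complex join the ring, MCM10 helps to start it, and the polymerases follow with PCNA, the clamp that holds them on DNA and that the RFC complex loads. E2F transcription factors switch many of these genes on as a cell commits to division, so their RNA is high in proliferating cells and low in resting ones. Homologous recombination then mends broken or stalled forks, with MRN at the break, BRCA1 and BRCA2 as mediators, and the Fanconi anemia proteins at crosslinks, under the kinases ATR and ATM. ATRX is itself a chromatin remodeler with known roles at stalled forks and telomeres.

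*Atrx* was measured first, as a check of the knock-down. Levels are given in FPKM, that is, fragments relative to transcript length and library size. In NSG mice, *Atrx* ran from 11.6 to 24.4 FPKM (median 16.2) in the 5 *ATRXCT* tumors and from 8.42 to 16.4 FPKM (median 8.59) in the 5 *ATRXKD* tumors, and the groups overlapped. The difference, on the log2(FPKM + 1) scale used throughout for differences, was -0.74 ± 0.22 (SE) and was not called (limma, adjusted p = 0.061). In Balb/c mice, it ran from 10.3 to 26.0 FPKM (median 17.03, n = 4) against 7.88 to 21.5 FPKM (median 13.2, n = 4), with a difference of -0.34 ± 0.36 (limma, adjusted p = 0.999). The groups overlapped there as well, so *Atrx* RNA did not separate knock-down from control tumors in either host. The paper reports loss of ATRX in K7M2 cells by Western blot, which measures protein in the cell line and not RNA in tumors. T cell genes followed the host: their mean was 1.94 to 2.52 (log2) in Balb/c tumors and 0.04 to 0.13 in NSG tumors, and *Cd3e* was listed at 0 in all 5 NSG *ATRXKD* tumors. NK cell genes did so as well, with means of 2.27 to 3.73 and 0.12 to 0.29. B cell genes did not: their mean was low in both hosts, at 0.36 to 0.55 in Balb/c and 0.29 to 0.65 in NSG tumors. Of the osteoblast-lineage genes, *Col1a1* lay at 56.6 to 498.6 FPKM, whereas *Bglap*, which marks mature osteoblasts, reached 0.431 FPKM at most, and *Sp7* 0.195 FPKM at most. Libraries held an estimated 15000000 to 25400000 fragments, and the members drew an estimated 240 (*Rad54l*) to 10800 (*Mcm6*) fragments in a tumor.

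Over the 18 tumors, *Pcna*, the clamp, was the most abundant member with a mean of 202 FPKM, followed by *Rrm2* with 90.8 FPKM and *Mcm6* with 75.9 FPKM. *Exo1*, an exonuclease that resects DNA ends, was the lowest with 4.75 FPKM. The helicase genes lay close together, between 51.0 FPKM (*Mcm3*) and 75.9 FPKM, and the Fanconi anemia genes between 6.93 FPKM (*Brip1*) and 7.60 FPKM (*Fancd2*). All members were expressed in every tumor. *Mcm7* varied least within NSG groups, with a coefficient of variation of 3.81% among *ATRXKD* and 6.29% among *ATRXCT* tumors, and *Brca2* varied most in 3 of the 4 groups, with 55.6% among Balb/c *ATRXCT* tumors. The median coefficient of variation of the members was 18.8% and 20.1% in the Balb/c *ATRXCT* and *ATRXKD* groups and 17.1% and 11.5% in the NSG groups. NSG *ATRXCT* tumors had the lowest group mean for 36 of the 47 members, and NSG *ATRXKD* tumors the highest for 20.

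**Figure D1:**
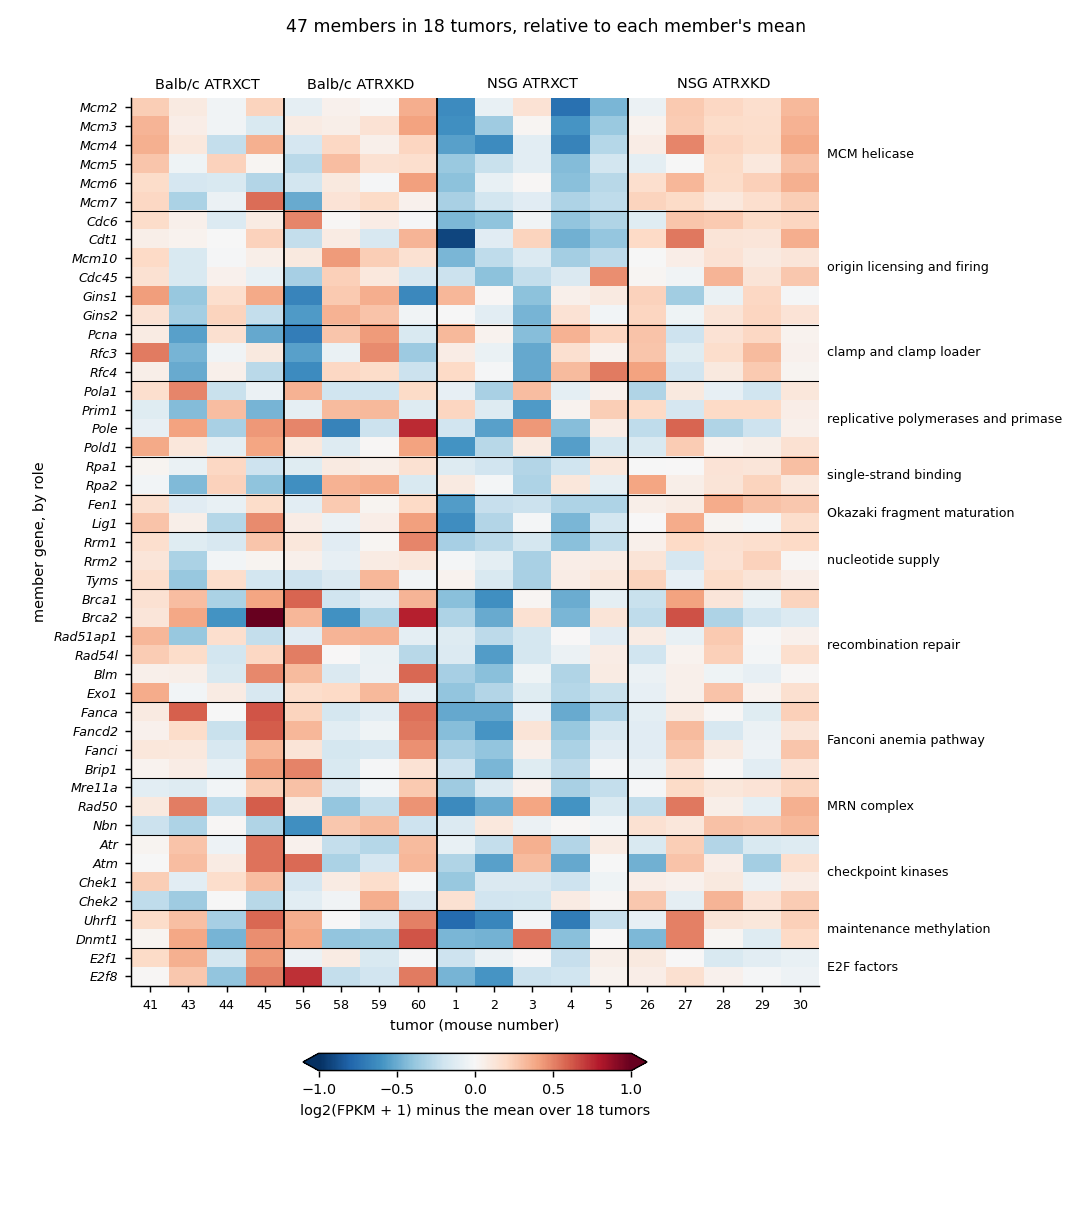
Each row is 1 of the 47 members, by role, and each column 1 of the 18 tumors, by group and mouse number. Color gives log2(FPKM + 1) minus the member's mean over the 18 tumors. NSG *ATRXCT* tumors had the lowest group mean (blue) for 36 of the 47 rows, and the mean over the 47 members was 4.21 to 4.43 in them and 4.50 to 4.65 in NSG *ATRXKD* tumors.

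In NSG mice, 10 of the 47 members rose and 0 fell in *ATRXKD* against *ATRXCT* tumors, and 37 were not called (limma, adjusted p under 0.05 over the 14654 genes tested). Among all genes tested, 3.73% were called higher and 3.05% lower. The 10 were 5 of the 6 helicase genes (*Mcm3*, *Mcm4*, *Mcm5*, *Mcm6*, and *Mcm7*), the licensing gene *Cdc6*, the firing gene *Mcm10*, the flap nuclease gene *Fen1*, the ribonucleotide reductase gene *Rrm1*, and *Uhrf1* of maintenance methylation. Their differences were between 0.36 and 0.71 on the log2 scale, so none reached a fold of 2, which 0.464% of all genes tested did among those called. The median difference over the 47 members was 0.25, against -0.0014 over all genes tested, and 43 of the 47 lay above 0 against 49.8% of all genes. At an unadjusted p under 0.05, 26 members were higher and 0 lower, where 13.8% and 12.5% of all genes were.

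The groups did not overlap in NSG mice for 11 members, all higher in *ATRXKD* tumors, against 4.36% of all genes that were higher and 3.14% that were lower without overlap. These were *Mcm3*, *Mcm4*, *Mcm5*, *Mcm6*, *Mcm7*, *Mcm10*, *Fen1*, and *Rrm1* of the called members, together with *Lig1* (0.43), *Exo1* (0.35), and *Nbn* (0.25), which were not called. For each of the 11, the exact permutation test (two-sided, 5 against 5) gave p = 0.00794, the smallest that 252 arrangements allow. *Cdc6* and *Uhrf1* were called although 1 *ATRXCT* tumor, that of mouse 3, lay within the *ATRXKD* range. Just outside the threshold were *Exo1* (adjusted p = 0.0533), *Fanca* (0.0565), *Lig1* (0.0595), and *Mre11a* (0.0604), and just inside it *Mcm5* (0.0491).

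**Figure D2:**
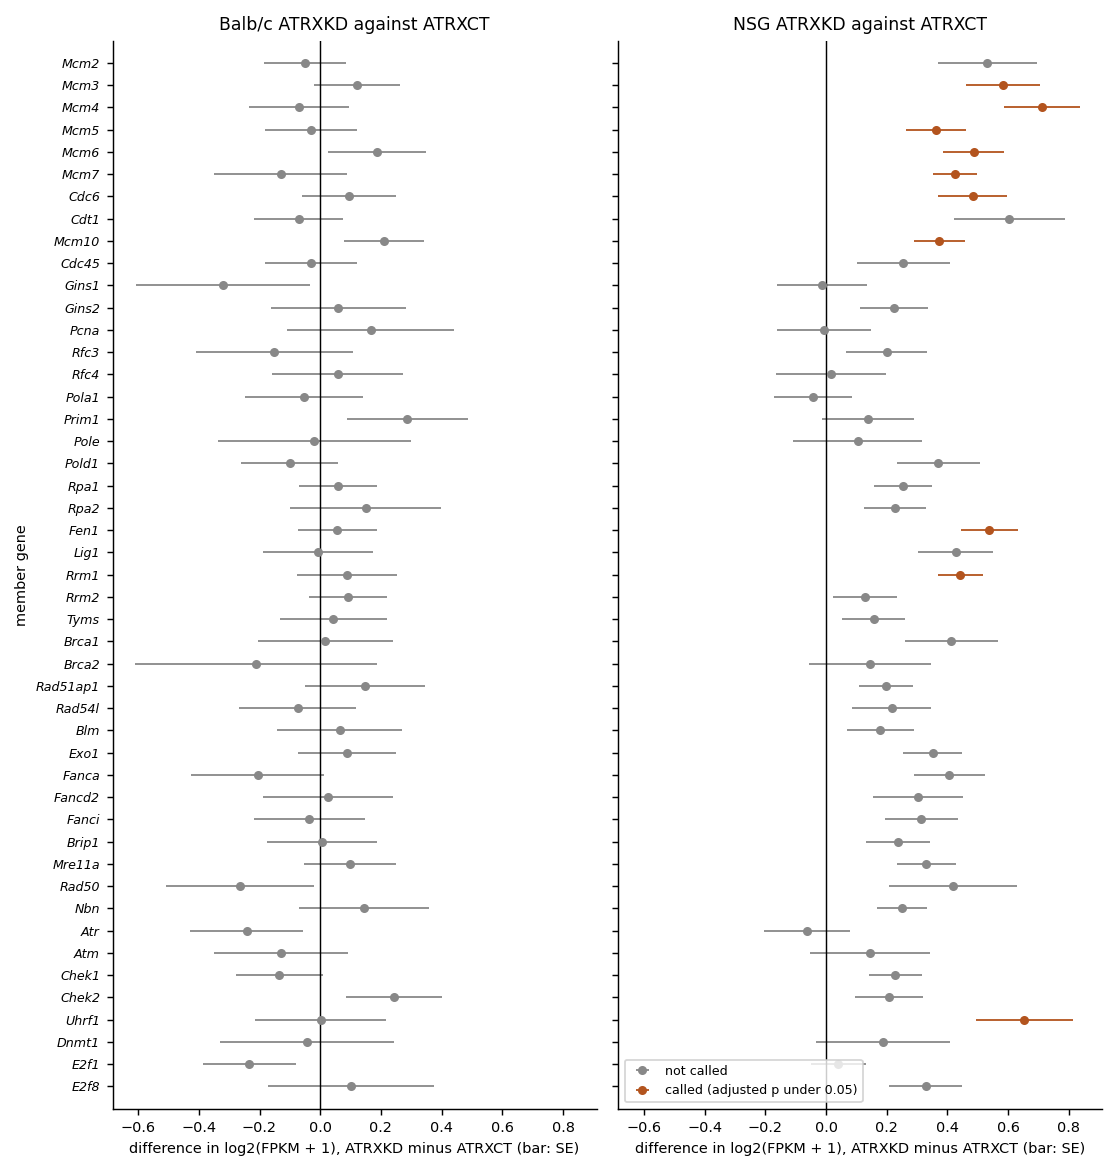
Each row is 1 member. Points give the difference in log2(FPKM + 1) between *ATRXKD* and *ATRXCT* tumors with its standard error, in Balb/c mice (left, 4 against 4) and NSG mice (right, 5 against 5), with the 10 called members in orange. In NSG mice, 43 of 47 points lie above 0, and in Balb/c mice the points lie on both sides of 0, from -0.32 to 0.29.

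The count of 10 rested on all tumors. Without *ATRXCT* tumor 1 or 4, or *ATRXKD* tumor 28 or 29, 4 members remained called (*Mcm4*, *Mcm7*, *Fen1*, and *Rrm1*), and without *ATRXKD* tumor 30, 3 remained (*Mcm4*, *Mcm7*, and *Rrm1*). *Mcm4*, *Mcm7*, and *Rrm1* were called in all 10 fits that left out 1 tumor. Without *ATRXCT* tumor 3, 19 members were called. The share of all genes called higher moved too, to 1.2% without *ATRXCT* tumor 1, 1.06% without tumor 4, and 8.76% without tumor 3. It was 3.73% with all tumors. The median difference over the members stayed between 0.23 and 0.32 in the fits that left out 1 tumor.

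The helicase is a ring of 6 subunits that unwinds DNA ahead of the fork. *Mcm4* (chr16:15623897-15637400, mm10) had the largest difference of all members. It measured 41.2, 38.8, 56.3, 37.7, and 49.4 FPKM in NSG ATRXCT tumors and 63.8, 85.0, 70.4, 68.9, and 78.8 FPKM in NSG ATRXKD tumors. Every *ATRXKD* tumor lay above every *ATRXCT* tumor, with group means of 44.7 ± 7.93 and 73.4 ± 8.45 FPKM (SD, n = 5) and a difference of 0.71 ± 0.13 (SE; limma, adjusted p = 0.0145). *Mcm4* in Balb/c mice was at 77.8, 64.9, 51.1, and 77.5 FPKM in Balb/c ATRXCT tumors and 53.7, 69.9, 62.6, and 70.1 FPKM in Balb/c ATRXKD tumors, and these groups overlapped.

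*Mcm3* (chr1:20803014-20820213) was at 32.2, 38.8, 50.8, 32.9, and 38.5 FPKM in NSG ATRXCT tumors and 51.3, 60.0, 57.0, 56.7, and 63.9 FPKM in NSG ATRXKD tumors. The means were 38.6 ± 7.43 and 57.8 ± 4.63 FPKM, and the difference was 0.58 ± 0.12 (limma, adjusted p = 0.0223). The highest *ATRXCT* tumor, of mouse 3, came within 1 FPKM of the lowest *ATRXKD* tumor. *Mcm3* in Balb/c mice was at 63.5, 52.3, 48.8, and 44.8 FPKM in Balb/c ATRXCT tumors and 52.9, 52.1, 55.5, and 66.5 FPKM in Balb/c ATRXKD tumors, again with overlap.

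*Mcm6* (chr1:128331575-128359705), the most abundant helicase gene, was at 56.1, 70.9, 75.5, 55.9, and 61.7 FPKM in NSG ATRXCT tumors and 84.2, 94.4, 84.9, 88.3, and 95.9 FPKM in NSG ATRXKD tumors, and the difference was 0.49 ± 0.10 (limma, adjusted p = 0.0219). Its Balb/c values were 85.2, 66.5, 67.1, and 60.7 FPKM in Balb/c ATRXCT tumors and 65.9, 80.2, 74.1, and 99.7 FPKM in Balb/c ATRXKD tumors. The mean of the Balb/c *ATRXCT* tumors, 69.9 ± 10.6 FPKM (SD, n = 4), lay between those of the NSG groups.

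*Mcm7* (chr5:138164589-138171862) had the tightest groups of all members in NSG mice. It was at 52.4, 57.8, 60.7, 52.8, and 55.0 FPKM in NSG ATRXCT tumors and 77.0, 75.2, 70.8, 74.3, and 78.3 FPKM in NSG ATRXKD tumors, a difference of 0.43 ± 0.07 (limma, adjusted p = 0.0137). It spread more among Balb/c tumors, with 76.0, 52.7, 63.2, and 97.6 FPKM in Balb/c ATRXCT tumors and 46.3, 72.4, 75.3, and 67.7 FPKM in Balb/c ATRXKD tumors, so that single Balb/c tumors lay below and above all NSG tumors.

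*Mcm5* (chr8:75109509-75128439) was at 41.4, 46.2, 49.98, 39.6, and 47.3 FPKM in NSG ATRXCT tumors and 50.5, 53.9, 61.8, 58.0, and 66.2 FPKM in NSG ATRXKD tumors. The gap between the groups was under 1 FPKM, and the difference of 0.36 ± 0.10 was the smallest among the called members (limma, adjusted p = 0.0491). Its Balb/c values were 65.5, 52.4, 63.4, and 54.7 FPKM in Balb/c ATRXCT tumors and 44.5, 67.1, 60.2, and 60.7 FPKM in Balb/c ATRXKD tumors. *Mcm2*, the remaining subunit, had a difference of 0.53 ± 0.16 but was not called (adjusted p = 0.0671), and *ATRXCT* tumor 3 with 55.6 FPKM lay inside the *ATRXKD* range of 48.3 to 63.1 FPKM.

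**Figure D3:**
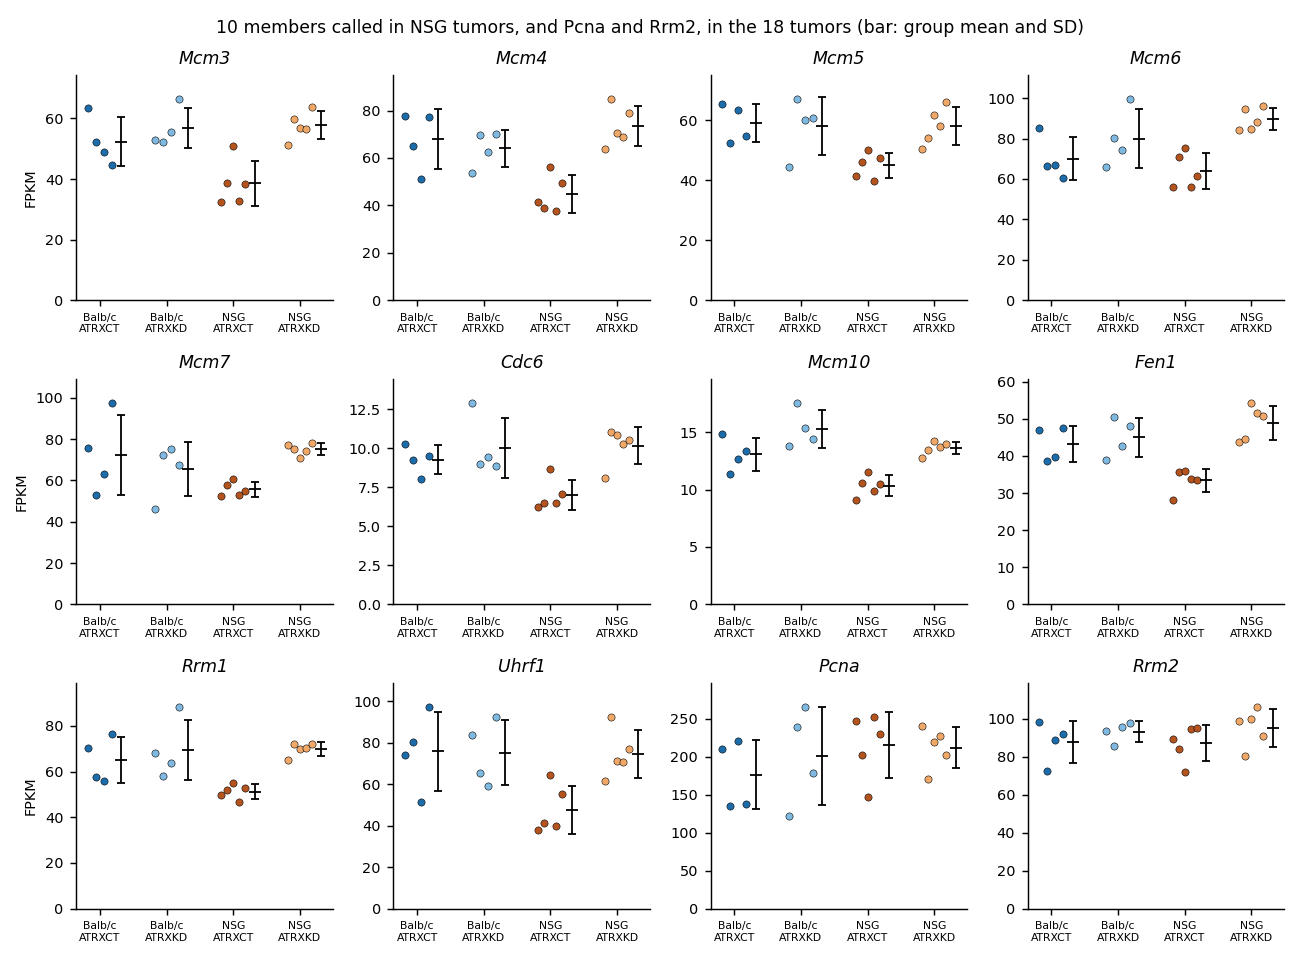
FPKM of the 10 members called in NSG mice and of *Pcna* and *Rrm2* in each tumor, by group, with the group mean and SD beside the points. The NSG *ATRXCT* group has the lowest mean in each panel of a called member, and in the panels of *Pcna* and *Rrm2* all groups overlap.

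Of the 6 licensing and firing genes, 2 rose and 0 fell in NSG *ATRXKD* tumors, where 3.73% of all genes rose and 3.05% fell. *Cdc6* (chr11:98907889-98923942), which loads the helicase, was at 6.24, 6.501, 8.65, 6.52, and 7.05 FPKM in NSG ATRXCT tumors and 8.11, 11.03, 10.9, 10.3, and 10.5 FPKM in NSG ATRXKD tumors. Tumor 3 of the *ATRXCT* group exceeded tumor 26 of the *ATRXKD* group, so the groups overlapped, and the difference was 0.48 ± 0.11 (limma, adjusted p = 0.0322; exact permutation test, p = 0.0159). The Balb/c values of *Cdc6* were 10.3, 9.28, 8.02, and 9.50 FPKM in Balb/c ATRXCT tumors and 12.9, 8.99, 9.43, and 8.84 FPKM in Balb/c ATRXKD tumors.

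*Mcm10* (chr2:4990724-5012791) was at 9.06, 10.6, 11.6, 9.90, and 10.5 FPKM in NSG ATRXCT tumors and 12.8, 13.5, 14.2, 13.7, and 14.0 FPKM in NSG ATRXKD tumors, with no overlap and a difference of 0.37 ± 0.08 (limma, adjusted p = 0.0286). Its Balb/c values were 14.8, 11.4, 12.7, and 13.3 FPKM in Balb/c ATRXCT tumors and 13.8, 17.5, 15.3, and 14.4 FPKM in Balb/c ATRXKD tumors, the highest of the 18 tumors being Balb/c *ATRXKD* tumor 58. *Cdt1*, the partner of CDC6 and the most abundant gene of this list, was at 21.9, 39.1, 49.6, 30.1, and 32.1 FPKM in NSG ATRXCT tumors and 48.7, 61.5, 46.4, 46.3, and 55.0 FPKM in NSG ATRXKD tumors. These groups overlapped through *ATRXCT* tumor 3, and the difference of 0.60 ± 0.18, although larger than that of most called members, was not called (adjusted p = 0.0663). *Cdt1* was at 44.2, 43.4, 42.2, and 49.8 FPKM in Balb/c ATRXCT tumors and 35.8, 45.0, 37.9, and 54.0 FPKM in Balb/c ATRXKD tumors. *Cdc45* (0.25), *Gins2* (0.22), and *Gins1* (-0.01), which form the active helicase with the MCM ring, were not called.

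None of the clamp, polymerase, primase, or single-strand binding genes was called. *Pcna* (chr2:132249286-132253180) was at 247, 202, 147, 252, and 229 FPKM in NSG ATRXCT tumors and 240.1, 170.5, 219, 228, and 203 FPKM in NSG ATRXKD tumors. The groups overlapped, with a difference of -0.01 ± 0.16 (adjusted p = 0.986). Among Balb/c tumors, *Pcna* was at 209, 135, 220.4, and 138 FPKM in Balb/c ATRXCT tumors and 122, 239, 265, and 178 FPKM in Balb/c ATRXKD tumors, so that tumors of 1 group differed by more than the group means did. The clamp loader genes *Rfc3* and *Rfc4* had differences of 0.20 and 0.02.

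Of the polymerase genes, *Pold1*, the catalytic subunit of the lagging strand polymerase, had the largest difference with 0.37 ± 0.14 (adjusted p = 0.11), and *Pole* (0.10) and *Pola1* (-0.04) lay near 0. *Prim1*, which makes the RNA primers, was at 49.4, 38.6, 28.3, 43.5, and 50.5 FPKM in NSG ATRXCT tumors and 48.9, 37.7, 48.7, 48.8, and 44.3 FPKM in NSG ATRXKD tumors, with overlap and a difference of 0.14 ± 0.15 (adjusted p = 0.598). Its Balb/c values were 38.8, 31.0, 52.8, and 30.4 FPKM in Balb/c ATRXCT tumors and 39.7, 53.1, 53.3, and 38.7 FPKM in Balb/c ATRXKD tumors. *Rpa1*, the large subunit of the protein that coats single-stranded DNA, was at 58.0, 55.3, 51.5, 55.1, and 68.7 FPKM in NSG ATRXCT tumors and 63.3, 63.6, 69.9, 69.1, and 78.4 FPKM in NSG ATRXKD tumors, a difference of 0.25 ± 0.10 (adjusted p = 0.121). Balb/c tumors had *Rpa1* at 64.5, 60.4, 73.5, and 54.7 FPKM in Balb/c ATRXCT tumors and 58.2, 67.6, 66.2, and 70.7 FPKM in Balb/c ATRXKD tumors, and *Rpa2* differed by 0.23 in NSG mice.

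*Fen1* (chr19:10199132-10203943), which trims the flaps of Okazaki fragments, rose in NSG *ATRXKD* tumors. It was at 28.1, 35.6, 36.0, 33.7, and 33.6 FPKM in NSG ATRXCT tumors and 43.6, 44.4, 54.3, 51.6, and 50.7 FPKM in NSG ATRXKD tumors. The groups stood 7 FPKM or more apart, the difference was 0.54 ± 0.09 (limma, adjusted p = 0.0148), and the Balb/c values were 46.95, 38.6, 39.7, and 47.7 FPKM in Balb/c ATRXCT tumors and 38.8, 50.4, 42.6, and 48.2 FPKM in Balb/c ATRXKD tumors. *Lig1*, the ligase that seals the fragments, had group means of 20.8 ± 3.52 and 28.2 ± 3.45 FPKM (SD, n = 5) and was not called.

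*Rrm1* (chr7:102441695-102469771), the large subunit of ribonucleotide reductase, had the smallest adjusted p of the members. It was at 49.6, 51.7, 55.2, 46.5, and 52.7 FPKM in NSG ATRXCT tumors and 64.9, 72.1, 69.6, 70.4, and 72.1 FPKM in NSG ATRXKD tumors, with group means of 51.1 ± 3.25 and 69.8 ± 2.96 FPKM (SD, n = 5) and a difference of 0.44 ± 0.07 (limma, adjusted p = 0.0126). Its Balb/c values were 70.5, 57.5, 55.8, and 76.3 FPKM in Balb/c ATRXCT tumors and 68.0, 57.9, 63.6, and 88.2 FPKM in Balb/c ATRXKD tumors. *Rrm2*, the small subunit that pairs with it, was not called: it was at 89.1, 84.2, 72.0, 94.7, and 95.2 FPKM in NSG ATRXCT tumors and 98.8, 80.3, 99.7, 106, and 91.1 FPKM in NSG ATRXKD tumors. Its groups overlapped, with a difference of 0.13 ± 0.10 (adjusted p = 0.468), and no test was made of *Rrm1* against *Rrm2*. The Balb/c values of *Rrm2* were 98.1, 72.4, 88.7, and 92.1 FPKM in Balb/c ATRXCT tumors and 93.6, 85.4, 95.7, and 97.8 FPKM in Balb/c ATRXKD tumors. *Tyms*, thymidylate synthase, differed by 0.16. The annotation also lists a *Tyms* pseudogene, whose reads may have been shared with it.

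Of the 13 recombination, Fanconi anemia, and MRN genes, 0 were called. All 13 differences were above 0, from 0.14 (*Brca2*) to 0.42 (*Rad50*), where 49.8% of all genes were above 0. At an unadjusted p under 0.05, 8 of them were higher, where 13.8% of all genes were. *Rad51ap1*, an accessory factor of recombination and the most abundant gene of the recombination list, was at 14.8, 13.4, 14.4, 16.4, and 15.0 FPKM in NSG ATRXCT tumors and 17.3, 15.5, 19.8, 16.3, and 16.9 FPKM in NSG ATRXKD tumors. The groups overlapped, with a difference of 0.20 ± 0.09 (adjusted p = 0.184). Its Balb/c values were 20.8, 12.3, 18.5, and 13.7 FPKM in Balb/c ATRXCT tumors and 15.1, 20.9, 21.0, and 15.2 FPKM in Balb/c ATRXKD tumors. *Brca1* differed by 0.41 ± 0.15 (adjusted p = 0.115), *Rad54l* by 0.22, and *Blm*, a helicase that dissolves joint molecules, by 0.18.

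*Fancd2*, which is ubiquitinated at crosslinks together with FANCI, was at 5.27, 4.58, 8.20, 5.46, and 6.51 FPKM in NSG ATRXCT tumors and 6.75, 9.44, 6.52, 7.06, and 8.12 FPKM in NSG ATRXKD tumors. These overlapped, with a difference of 0.30 ± 0.15 (adjusted p = 0.214), and the Balb/c values were 7.67, 8.52, 6.20, and 11.8 FPKM in Balb/c ATRXCT tumors and 9.58, 6.81, 7.16, and 11.1 FPKM in Balb/c ATRXKD tumors. *Fanci* differed by 0.31 and *Brip1* by 0.24. *Mre11a*, the nuclease of the MRN complex, was at 10.9, 12.8, 14.7, 11.2, and 11.9 FPKM in NSG ATRXCT tumors and 14.1, 16.4, 15.4, 15.7, and 16.7 FPKM in NSG ATRXKD tumors. *ATRXCT* tumor 3 lay inside the *ATRXKD* range, the difference was 0.33 ± 0.10, and the Balb/c values were 13.2, 12.9, 13.9, and 16.96 FPKM in Balb/c ATRXCT tumors and 17.6, 12.7, 13.9, and 17.2 FPKM in Balb/c ATRXKD tumors.

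The 4 checkpoint kinase genes were not called. *Atr*, the kinase that responds to stalled forks, was at 15.0, 13.3, 20.5, 12.7, and 16.8 FPKM in NSG ATRXCT tumors and 14.2, 18.9, 12.7, 14.1, and 14.4 FPKM in NSG ATRXKD tumors. The groups overlapped over most of their range, with a difference of -0.06 ± 0.14 (adjusted p = 0.817), and its Balb/c values were 16.1, 19.5, 15.2, and 23.5 FPKM in Balb/c ATRXCT tumors and 16.3, 13.2, 12.8, and 19.98 FPKM in Balb/c ATRXKD tumors. *Chek1*, the kinase downstream of ATR, differed by 0.23 ± 0.09 (adjusted p = 0.126), *Chek2* by 0.21, and *Atm* by 0.15.

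*Uhrf1* (chr17:56303337-56323486), which recruits DNMT1 to newly copied DNA, rose in NSG *ATRXKD* tumors. It was at 37.8, 41.1, 64.3, 39.7, and 55.4 FPKM in NSG ATRXCT tumors and 61.3, 92.6, 71.2, 70.6, and 76.9 FPKM in NSG ATRXKD tumors, with *ATRXCT* tumor 3 above *ATRXKD* tumor 26. The difference was 0.65 ± 0.16 (limma, adjusted p = 0.0368), and the Balb/c values were 74.1, 80.5, 51.5, and 97.2 FPKM in Balb/c ATRXCT tumors and 83.9, 65.4, 59.2, and 92.5 FPKM in Balb/c ATRXKD tumors. *Dnmt1* itself differed by 0.19 ± 0.22 and was not called. Of the E2F factors, *E2f1*, an activator, was at 12.3, 13.8, 14.4, 12.2, and 15.1 FPKM in NSG ATRXCT tumors and 15.4, 14.5, 12.9, 13.3, and 13.6 FPKM in NSG ATRXKD tumors. These overlapped, with a difference of 0.04 ± 0.09 (adjusted p = 0.817), and the Balb/c values were 16.6, 18.7, 12.7, and 19.6 FPKM in Balb/c ATRXCT tumors and 13.8, 15.3, 12.9, and 14.3 FPKM in Balb/c ATRXKD tumors. *E2f8*, a repressor of the family, differed by 0.33 ± 0.12 (adjusted p = 0.108).

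Promoter sequences are shown because E2F factors bind the starts of many of these genes. RefSeq windows of 300 bases (250 before to 50 after the start, GRCm38.p6, the assembly that mm10 names) were at hand for 39 of the 47 members, and a gene with several starts had several windows. For 37 of the 39, the start of at least 1 window lay within 50 nt of a transcript start in the annotation of the matrix. The exceptions were *Mcm3* (99 nt away) and *E2f8* (555 nt away). 4 forms of the E2F site were searched on both strands, TTTCCCGC, TTTGGCGC, TTTCGCGC, and TTTGCCGC, which can overlap one another when read on opposite strands. At least 1 was found for 14 of 39 members (35.9%), for 22 of 74 other replication and repair genes (29.7%), for 1 of 13 mitosis genes (7.69%), and for 4.31% of the 10997 genes tested in NSG mice that had a window. A form was found in at least 1 window of 4 of the 5 helicase genes that had one, of 2 of 2 maintenance methylation genes, and of 0 of 3 Fanconi anemia genes. The letters CCAAT, bound by NF-Y, were in windows of 27 of 39 members (69.2%) and 13 of 13 mitosis genes against 42.8% of those 10997 genes, and the letters TTTGAA, the CHR element of late cell cycle genes, in 5 of 39 members (12.8%) and 10 of 13 mitosis genes (76.9%) against 14.6%. In NSG mice, the median difference was 0.40 for the 14 members with E2F letters, of which 6 were called, and 0.23 for the 25 without, of which 3 were called; *Mcm4*, the tenth, had no window. A match is a description of letters and shows no binding.

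The 6 called members with a match are shown with 1 match for each gene in a stretch of 24 bases, 5′ to 3′ on the strand of the gene, with the E2F letters in capitals. They were chosen after the calls were known. In *Mcm5* and *Mcm6*, forms on opposite strands overlap and make one longer run of capitals.
Mcm3 (chr1:20820278-20820301, minus strand): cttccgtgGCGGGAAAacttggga
Mcm5 (chr8:75109348-75109371, plus strand): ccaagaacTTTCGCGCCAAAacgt
Mcm6 (chr1:128359800-128359823, minus strand): cgtatgctTTTGGCGCGAAAagtg
Mcm7 (chr5:138172033-138172056, minus strand): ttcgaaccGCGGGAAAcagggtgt
Cdc6 (chr11:98908005-98908028, plus strand): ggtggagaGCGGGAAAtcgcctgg
Uhrf1 (chr17:56304120-56304143, plus strand): gagtcgggTTTCGCGCgcccaggc

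For the 3 most abundant members, the 250 bases before the start are given in full, again with E2F letters in capitals. *Mcm6* was called and holds 3 matches, and *Pcna* and *Rrm2* were not called and hold 0. Other members went the other way. The called *Mcm10*, *Fen1*, and *Rrm1* had no match, and the uncalled *Cdt1*, *Rfc3*, *Pola1*, *Pold1*, *Lig1*, *Brca2*, *Chek2*, and *Dnmt1* had a match. A link between matches and calls was not tested.
Mcm6 (chr1:128359706-128359955, minus strand): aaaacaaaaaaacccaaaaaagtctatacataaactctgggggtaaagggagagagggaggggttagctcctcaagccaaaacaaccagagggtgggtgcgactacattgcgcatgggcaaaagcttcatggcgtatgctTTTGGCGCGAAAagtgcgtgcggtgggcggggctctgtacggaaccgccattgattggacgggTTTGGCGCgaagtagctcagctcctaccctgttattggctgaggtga
Pcna (chr2:132253181-132253430, minus strand): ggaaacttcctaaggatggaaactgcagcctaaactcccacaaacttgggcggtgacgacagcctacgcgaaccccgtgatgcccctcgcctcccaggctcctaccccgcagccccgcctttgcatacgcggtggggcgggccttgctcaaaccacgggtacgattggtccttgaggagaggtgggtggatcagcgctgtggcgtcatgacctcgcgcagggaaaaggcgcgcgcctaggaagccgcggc
Rrm2 (chr12:24708004-24708253, plus strand): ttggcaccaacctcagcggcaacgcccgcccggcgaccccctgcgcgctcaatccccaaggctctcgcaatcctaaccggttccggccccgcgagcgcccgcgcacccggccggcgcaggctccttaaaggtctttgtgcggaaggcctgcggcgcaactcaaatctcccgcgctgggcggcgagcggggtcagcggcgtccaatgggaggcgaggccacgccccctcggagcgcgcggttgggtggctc

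Other genes of these pathways were counted as well. Of 98 further genes from 4 lists (other replication, other recombination and checkpoint, non-homologous end joining, and other E2F and pocket protein genes), 4 rose (4.08%, near the 3.73% of all genes) and 1 fell (1.02%, where 3.05% of all genes did) in NSG *ATRXKD* tumors, with a median difference of 0.11. The 5 called genes are given as single values and not as a result about the lists. *Xrcc5*, the KU80 subunit of the end joining machinery, rose by 0.71 ± 0.15 (limma, adjusted p = 0.0254), from 10.4 ± 2.37 to 17.4 ± 2.66 FPKM (SD, n = 5). *Rad1*, part of the checkpoint clamp, rose by 0.45 ± 0.11, *Ccna2*, cyclin A2, by 0.44 ± 0.08, and *Chaf1b*, a chromatin assembly factor, by 0.32 ± 0.09. *Dclre1c*, the Artemis nuclease of end joining, was lower by the same test, at 6.01 ± 0.499 against 9.04 ± 1.71 FPKM (difference -0.50 ± 0.13). *Ccna2* was at 59.4 ± 1.59 FPKM in *ATRXCT* tumors and 81.3 ± 8.41 FPKM in *ATRXKD* tumors of NSG mice. In Balb/c mice, 0 of the 98 were called, with 0 at an unadjusted p under 0.05.

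*Prkdc*, the DNA-dependent kinase of end joining that the scid allele of NSG mice disrupts, is divergent from *Mcm4* on chromosome 16, with 466 nt between their starts. The tumor cells carry their own *Prkdc*, and the stroma of NSG tumors the scid allele. *Prkdc* was at 9.41 ± 2.34 FPKM in NSG *ATRXCT* and 8.14 ± 2.603 FPKM in NSG *ATRXKD* tumors (SD, n = 5), a difference of -0.20 ± 0.21 (limma, adjusted p = 0.583). In Balb/c mice, it was at 12.4 ± 2.36 and 9.403 ± 1.69 FPKM (SD, n = 4), a difference of -0.36 ± 0.18 (adjusted p = 0.999). The kinase gene was called in no comparison, unlike its neighbor *Mcm4*, and no test was made of one gene against the other.

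A bulk tumor holds cancer cells and host cells, so fewer cells of a type and less RNA per cell cannot be told apart. Genes of other lists were counted beside the members in NSG mice, where 3.73% of all genes were called higher and 3.05% lower. Of 16 mitosis genes, 6 rose and 0 fell in *ATRXKD* tumors (*Aurkb*, *Bub1*, *Bub1b*, *Kif20a*, *Plk1*, and *Tpx2*), and their mean was 4.64 to 5.14 (log2) in *ATRXCT* and 5.17 to 5.42 in *ATRXKD* tumors, without overlap. Of 8 macrophage genes, 2 fell (*C1qb* and *C1qc*) and 0 rose, with means of 7.16 to 8.002 in *ATRXCT* and 6.84 to 7.34 in *ATRXKD* tumors. *Csf1r*, a receptor of macrophages, had a difference of 0.37 in the other direction (limma, adjusted p = 0.114). Of 7 endothelial genes, 2 rose (*Pecam1* and *Tie1*) and 0 fell, with means of 1.39 to 2.54 and 2.10 to 2.51. Of 5 adipocyte genes, 0 were called and 5 had a difference above 0 (median 0.81), with means of 1.49 to 1.85 and 1.23 to 3.94. Of 4 erythroid genes tested, 0 were called and 0 had a difference above 0 (median -0.80), and 2 had an unadjusted p under 0.05. Of 6 neutrophil genes, 0 were called and 2 had a difference above 0 (median -0.39). Of 8 skeletal muscle genes, 0 were called, with means of 0.60 to 4.98 and 0.28 to 4.98. Single tumors of each group stood out, as *Myh4*, a muscle myosin, reached 19.7 FPKM in 1 *ATRXCT* and 23.1 FPKM in 1 *ATRXKD* tumor. The part of these cells in the differences of the members was not tested. The paper found no significant rise in growth rate of K7M2 tumors with the knock-down in either host. It also found none in the proliferation of K7M2 cells in culture.

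**Figure D4:**
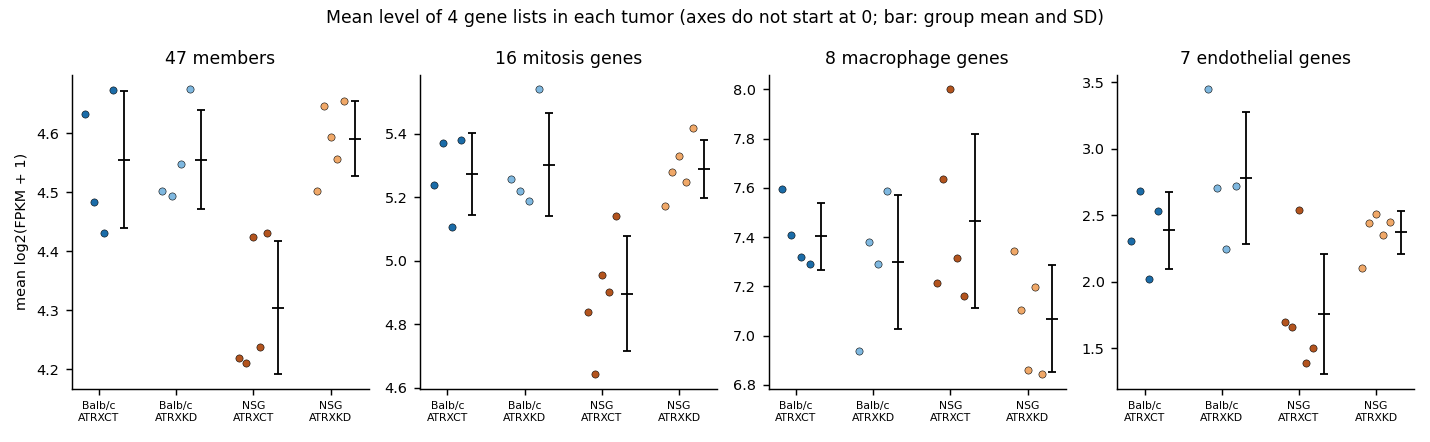
Mean log2(FPKM + 1) of the 47 members, 16 mitosis genes, 8 macrophage genes, and 7 endothelial genes in each tumor, by group, with the group mean and SD. The vertical axes do not start at 0. The NSG *ATRXCT* group has the lowest mean for members and mitosis genes, with tumors from 4.21 to 4.43 and from 4.64 to 5.14.

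In Balb/c mice, no member was called between *ATRXKD* and *ATRXCT* tumors. Of the 47, 0 rose and 0 fell (limma, 14701 genes tested), and at an unadjusted p under 0.05 there were also 0, where 1.72% of all genes were higher and 2.42% lower. Among all genes tested, 0.0% were called higher and 0.0068% lower, which is 1 gene, so this test yielded almost no calls in these 8 tumors. The paper used DESeq for this comparison and reports genes both lower and higher in *ATRXKD* tumors. The small number here thus holds for limma on FPKM values alone. The groups overlapped for each of the 47 members, where 1.25% of all genes were higher and 1.93% lower without overlap. Member differences ran from -0.32 (*Gins1*) to 0.29 (*Prim1*), with a median of 0.0054 against -0.0032 over all genes. For the called members of NSG mice, standard errors were wider here: *Mcm7* differed by -0.13 ± 0.22, *Mcm4* by -0.07 ± 0.16, *Mcm5* by -0.03 ± 0.15, *Mcm3* by 0.12 ± 0.14, and *Mcm6* by 0.19 ± 0.16. *Cdc6* (0.09 ± 0.15), *Mcm10* (0.21 ± 0.13), *Fen1* (0.06 ± 0.13), *Rrm1* (0.09 ± 0.17), and *Uhrf1* (0.0020 ± 0.22) likewise did not separate the groups. With 4 against 4 tumors, the exact permutation test cannot go below p = 0.0286, and for these 10 members it gave values from 0.114 (*Mcm10*) to 1 (*Uhrf1*).

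Whether the knock-down acted differently in the hosts was tested as an interaction over all 18 tumors. The difference of effects (Balb/c minus NSG) was below 0 for 43 of 47 members, with a median of -0.28 against 0.0038 over all genes, but 0 members were called (limma, 14803 genes tested, of which 0.0% were called). At an unadjusted p under 0.05, 13 members had a lower effect in Balb/c mice, where 5.86% of all genes did. *Mcm4* came first with -0.78 ± 0.20 (adjusted p = 0.225), then *Fen1* with -0.48 ± 0.15 (0.305). For *Mcm7*, the difference of effects was -0.56 ± 0.22 (0.404), for *Mcm3* -0.46 ± 0.18 (0.415), for *Uhrf1* -0.65 ± 0.27 (0.428), for *Mcm5* -0.39 ± 0.17 (0.44), for *Cdc6* -0.39 ± 0.18 (0.469), and for *Rrm1* -0.35 ± 0.16 (0.471). *Mcm6* (-0.30 ± 0.18) and *Mcm10* (-0.16 ± 0.14) had an unadjusted p above 0.05. With weights for each library and a robust prior, 18 members were called with a lower effect in Balb/c mice, where 8.57% of all genes were in that test. In the unweighted test, the effects in the hosts are thus not shown to differ.

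Between *ATRXCT* tumors of Balb/c and NSG mice, 0 of the 47 members were called in either direction. This comparison uses the same 5 NSG *ATRXCT* tumors as the knock-down comparison in NSG mice, so the results are not independent. The median difference (Balb/c minus NSG) was 0.31 against 0.0084 over all genes, 40 of 47 differences were above 0, and 19 members had an unadjusted p under 0.05 and were higher in Balb/c mice, where 11.5% of all genes were. At an unadjusted p, 0 were lower, where 7.87% of all genes were. Of all genes, 2.09% were called higher and 1.09% lower (limma). *Fanca*, a subunit of the Fanconi anemia core complex, came nearest with 0.71 ± 0.17 (adjusted p = 0.0532), at 9.44 ± 2.36 FPKM in Balb/c (SD, n = 4) and 5.30 ± 0.874 FPKM in NSG tumors (SD, n = 5). For *Fanca*, *Mcm5* (0.39), *Fen1* (0.36), and *Rrm1* (0.33), the hosts did not overlap, where 4.72% of all genes were higher in Balb/c mice without overlap. With library weights and a robust prior, 21 members were called higher in Balb/c mice, where 13.3% of all genes were. Without Balb/c tumor 44, there were 3 members (4.34% of all genes), and without NSG tumor 3 there were 5 (3.53% of all genes).

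Among *ATRXKD* tumors, no member was called between the hosts. The median difference (Balb/c minus NSG) was -0.024 against -0.016 over all genes, differences ran from -0.29 (*Nbn*) to 0.20 (*Blm*), and of the 14669 genes tested with limma 2.8% were called higher and 0.839% lower. At an unadjusted p under 0.05 there were 0 members, where 9.93% of all genes were higher and 6.5% lower. The smallest unadjusted p was 0.0921 (*Cdt1*, -0.26 ± 0.14). Of the 98 other pathway genes, 1 was called in each host comparison: *Donson*, a replication fork factor, was higher in Balb/c *ATRXCT* tumors by 0.57 ± 0.12 (limma, adjusted p = 0.0309), and *Pole3*, an accessory subunit of the leading strand polymerase, was lower in Balb/c *ATRXKD* tumors (-0.44 ± 0.10; limma, adjusted p = 0.0355).

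Libraries differed in how values changed along transcript length, and members of unlike length moved apart with it. The slope of a library, in log2 per doubling of transcript length relative to the other libraries, ran from -0.15 to 0.21, and 6 tumors had a slope above 0.05: Balb/c *ATRXCT* tumors 43 and 45, Balb/c *ATRXKD* tumors 56 and 60, NSG *ATRXCT* tumor 3, and NSG *ATRXKD* tumor 27. In these 6 tumors, the 8 members with a longest transcript under 2000 nt, such as *Pcna* and *Gins1*, deviated from their group mean by -0.46 to -0.13 on average, and in the other 12 tumors by -0.05 to 0.37. The 17 members of at least 4000 nt, such as *Brca2*, *Atm*, and *Dnmt1*, deviated by 0.096 to 0.36 in the 6 tumors and by -0.30 to 0.13 in the other 12. NSG *ATRXCT* tumor 3 was the highest of its group for 27 members and the lowest for 10. The part of the length slope in the differences of single members was not tested beyond these alternatives. With the trend removed from each library, 17 members were called higher in NSG mice, where 6.53% of all genes were. Without the 6 tumors, a choice made after seeing the data, 17 were called higher as well, where 7.67% of all genes were. Calls thus rose among all genes too, from 3.73% in the main fit. All 10 members first called were among the 17 in both cases. The NSG median was 0.30 for the 17 members of at least 4000 nt and 0.25 for the 30 shorter ones. The shorter class holds the 8 members under 2000 nt, whose NSG differences ran from -0.01 (*Gins1*) to 0.23 (*Rpa2*). None of these 8 was among the 10 first called, and *Gins2* was called with the trend removed.

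**Figure D5:**
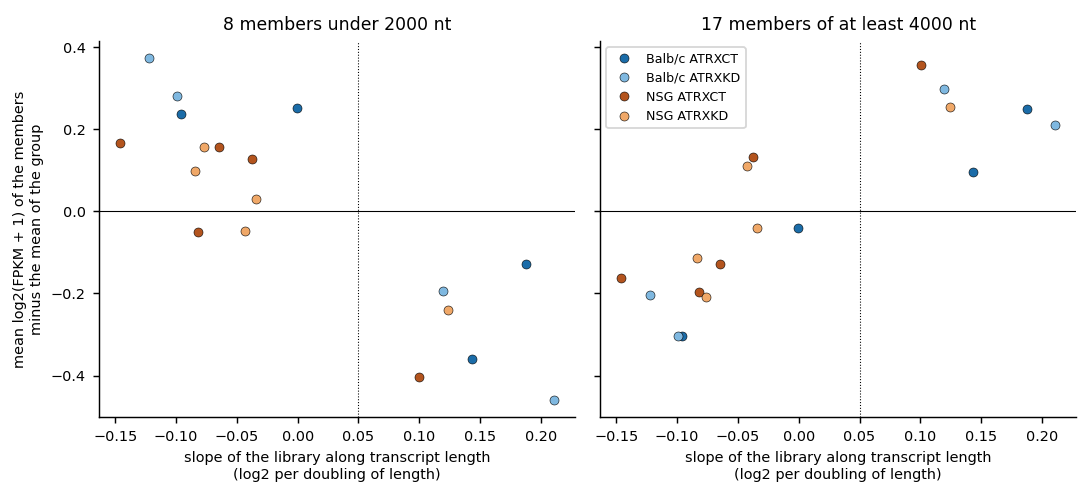
Each point is 1 tumor, colored by group. The horizontal axis gives the slope of the library along transcript length (log2 per doubling), and the vertical axis the mean log2(FPKM + 1) of the 8 short (left) or 17 long members (right) minus the mean of the group. The 6 tumors right of the dotted line at 0.05 lie below 0 in the left and above 0 in the right panel.

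Exons of 7 members overlap those of another gene on the opposite strand, over 116 to 777 nt (*Fanca* with *Zfp276* over 777 nt, *Fanci* with *Polg* over 398 nt). Libraries were stranded, but whether the counting used strand is not given in the sources used here, so reads of such partners may have been mixed. None of the 10 called members was among the 7.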

How the data were processed

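RNA was measured in 18 tumors by paired-end sequencing (75 bp) of ribo-depleted, stranded libraries. The authors aligned reads to mm10 with STAR 2.6.0c, removed reads with a mapping quality under 20 and PCR duplicates, and computed FPKM with Cufflinks 2.2.1. The deposited values are log2(FPKM + 1) per gene; base 2 was settled by comparing sums of values times transcript length. Whether the counting used strand is not given in the sources used here. The matrix gives no read counts, so depth was estimated (15000000 to 25400000 fragments) from the spacing of low values in genes with a single transcript, and no count test was run because 35.8% to 41.7% of the values came out whole within 0.1 fragments, where 20% would by chance.

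Spike-ins (92 rows, 1.44% to 3.04% of the signal) were removed. Groups follow the labels, with mouse numbers as names. Genes were kept where their mean over the tumors compared reached 0.1 FPKM, and tested on log2(FPKM + 1) with limma 3.58.1 (R 4.3.3, trend over mean level), and p-values were adjusted by Benjamini-Hochberg over all genes tested. Calls needed an adjusted p under 0.05. The p-values of limma set a group difference against the spread between grafts and do not measure that spread. Permutation tests were exact and two-sided. Fits were tested on simulated data with independent noise and with shifts larger than the differences of the members. That test does not cover differences of their size. Alternatives were a pseudocount of 0.1, median-ratio scaling, a filter at 1 FPKM, no filter, library weights with a robust prior, one fit of all 4 groups, removal of the transcript length trend, each tumor left out in turn, and a fold of at least 2. Leaving out libraries with a length slope above 0.05 was added after seeing the data. The members and lists were chosen with earlier results of these data known. Values per tumor are given for the 10 called members and the most abundant member of each role, and differences for members whose groups did not overlap and for others beside them. Of other pathway genes, those called were named, and *Atrx* and *Prkdc* always.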

Additional observations from a re-analysis of the deposited data

Results flagged for a closer look

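In groups of 4 or 5 tumors, a tumor counted as distant where its gap to the nearest other tumor took most of the range of the group (Dixon's 95% limit). Of 308 groups checked, 12 had such a tumor, and chance alone gives about 1 in 20, or 15.4. All values here are log2(FPKM + 1).

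Among called members, *Cdc6* was high in Balb/c *ATRXKD* tumor 56 (3.798, others 3.30 to 3.38) and low in NSG *ATRXKD* tumor 26 (3.19, others 3.50 to 3.59), and *Fen1* was low in NSG *ATRXCT* tumor 1 (4.86, others 5.11 to 5.21). *Brca2*, the longest member but for *Atm*, was high in NSG *ATRXKD* tumor 27 (3.45, others 2.50 to 2.67). *Rad54l*, a motor protein of recombination, was low in Balb/c *ATRXCT* tumor 44 (2.70, others 3.06 to 3.14). Balb/c *ATRXCT* tumor 45 had the highest means of checkpoint kinases (3.90, others 3.62 to 3.67), of other recombination and checkpoint genes (3.22, others 3.08 to 3.11), and of keratinocyte genes (2.99, others 0.27 to 0.35). Keratinocyte genes were also high in Balb/c *ATRXKD* tumor 60 (1.21, others 0.26 to 0.37). Osteoblast-lineage genes were high in Balb/c *ATRXKD* tumor 56 (3.84, others 3.39 to 3.46), endothelial genes in NSG *ATRXCT* tumor 3 (2.54, others 1.39 to 1.70), and T cell genes in NSG *ATRXKD* tumor 29 (0.10, others 0.047 to 0.061).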

How the results depend on the processing

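In NSG mice, 0 members were called lower under any alternative tried. The 10 called higher became 0 with a required fold of at least 2, 24 with library weights and a robust prior (20.1% of all genes tested), 17 with the transcript length trend removed (6.53%), 17 without the libraries of high length slope (7.67%), and 3 to 19 with 1 tumor left out (0.614% to 8.76%). *Mcm3*, *Mcm4*, *Mcm6*, *Cdc6*, *Mcm10*, *Fen1*, and *Rrm1* were called in each of the other 8 settings that kept the threshold on adjusted p alone, and *Mcm4*, *Mcm7*, and *Rrm1* with any 1 tumor left out. *Mcm5* lost its call with a pseudocount of 0.1 (adjusted p = 0.0501), with no filter (0.0558), and in the fit of all 4 groups (0.0661), *Mcm7* in the fit of all 4 groups (0.0843), and *Uhrf1* with no filter (0.0546), all by limma. The 0 members higher in Balb/c *ATRXCT* tumors, where 2.09% of all genes were, became 21 with library weights (13.3% of all genes tested). They became 1 with a pseudocount of 0.1, 2 in the fit of all 4 groups, and 1 with the length trend removed. Counts this small are not read as a result about the members. With 1 tumor left out, 0 to 5 were called (5 without NSG tumor 3, where 3.53% of all genes were). The median of the members, 0.31, became 0.21 to 0.39 in those fits. For the difference of effects between hosts, library weights gave 18 members lower (8.57% of all genes tested) and a median of -0.41. Apart from a smaller set of genes tested or of tumors compared, where that is the alternative itself, the cause was not tested.

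Reversals of direction touched only differences that were not called. In Balb/c mice, library weights gave -0.046 for *Mcm3*, 0.037 for *Mcm5*, 0.0029 for *Mcm7*, -0.043 for *Cdc6*, -0.071 for *Rrm1*, and -0.16 for *Uhrf1*, and leaving out libraries of high length slope gave -0.049 for *Mcm3*, 0.068 for *Mcm4*, 0.091 for *Mcm7*, and -0.046 for *Rrm1*. With 1 Balb/c tumor left out, *Mcm4* ranged from -0.20 to 0.012, *Mcm5* from -0.10 to 0.090, *Mcm7* from -0.27 to 0.025, *Cdc6* from -0.021 to 0.15, *Rrm1* from -0.032 to 0.17, and *Uhrf1* from -0.17 to 0.13. In NSG mice, *Pcna* was at 0.031 with the length trend removed and ranged from -0.14 to 0.069 with 1 tumor left out, and *Atr* from -0.15 to 0.034. Of the differences of single members recomputed under an alternative, 830 kept direction and side of the threshold, 35 gained a call, 45 lost it, and 30 changed sign. Where 1 tumor was left out, the fit rested on the remaining 3 or 4 of its group. No paired analysis was possible because no mouse number occurs in more than 1 group. The estimated depth (15000000 fragments at least) left the members at 240 fragments or more, and the part of counting in the spread between tumors was not tested.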
